A study of Rattus norvegicus with 12 samples.

Results

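The genes described here are 7 genes of leukocyte recruitment and innate immunity in the rat retina. They are the chemokine Ccl2 (ENSRNOG00000007159), the cytokine Il1b (ENSRNOG00000004649), the adhesion molecules Icam1 (ENSRNOG00000020679) and Vcam1 (ENSRNOG00000014333), the receptors Tlr2 (ENSRNOG00000009822) and Tlr4 (ENSRNOG00000010522), and the complement component C3 (ENSRNOG00000046834). They were chosen by name and identifier for their function, with earlier results of these data known. All 7 were found among the 32883 gene rows of the deposited table. The table lists identifiers only, so each symbol rests on the pairing given with the choice of genes. A RefSeq gene of that symbol exists for 7 of 7, and for 7 of 7 the gene length recovered from the values is shorter than the span of that gene. This is a loose bound (835 against 1799 bases for Ccl2) that does not establish the pairing. How many other pairings would meet it was not worked out.

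The study measured RNA from dissected retinas at postnatal day 18, in 4 groups of 3 libraries, and all groups were wild type rats of the Sprague Dawley strain. The group OIR scrambled had oxygen-induced retinopathy (OIR), a model in which a change in oxygen during growth of the retinal vessels stops that growth and later provokes abnormal vessels, and received a scrambled control RNA. The group OIR mimic had the same retinopathy and was given a miR-143 mimic, an RNA made to act as that microRNA. The groups Sham scrambled and Sham mimic were the controls without retinopathy, with the same pair of RNAs, so that no group was left without an added RNA. The labels state neither the oxygen schedule nor how the RNA was given. Whether replicates are different animals is unstated too, and a p-value here compares groups with library-to-library spread, which may be technical. Disease and transfection tags are missing from the records of 2 libraries, OIR scrambled replicate 3 and OIR mimic replicate 1. They are grouped by title and called the untagged libraries below, and results that rest on them are also given without them.

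Leukocytes leave the blood in steps. Tissue cells release chemokines such as CCL2, which draws monocytes, and the vessel wall displays the adhesion molecules ICAM1 and VCAM1, which hold leukocytes through their integrins. Toll-like receptors sense microbial products and molecules released from damaged cells and, through NF-kappaB, raise cytokines such as interleukin 1 beta, which in turn raises chemokines and adhesion molecules. C3 is the component on which the complement pathways converge, and in the retina microglia and other glia are known sources of complement and of these signals.

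The RNA given in the mimic groups stands for the microRNA whose mature RefSeq sequence is shown here with its seed, bases 2 to 8, in capitals. In the build GRCr8 it lies at chr18:57371373-57371394 on the minus strand. The labels do not give the sequence of the mimic itself.
rno-miR-143-3p: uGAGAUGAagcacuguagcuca

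RefSeq promoter windows, which run from 250 bases before the start of a gene to 50 after it, were found for 6 of the 7 genes (build GRCr8, while the files name rn6). Ccl2 had no entry. The windows of the adhesion pair, of the Toll-like receptor pair and of C3 are shown, because in each pair 1 gene was called in OIR and the other was not (below) and C3 changed with the lowest adjusted p. Capitals mark matches, on either strand, to the kappaB consensus (GGGRNNYYCC) and to AP-1 (TGANTCA). They also mark the STAT element GAS (TTCNNNGAA), C/EBP (TTGCNNAA) and the TATA box (TATAAA). In these letters R is A or G, Y is C or T, and N is any base.
Icam1, chr8:27829595-27829894, plus strand: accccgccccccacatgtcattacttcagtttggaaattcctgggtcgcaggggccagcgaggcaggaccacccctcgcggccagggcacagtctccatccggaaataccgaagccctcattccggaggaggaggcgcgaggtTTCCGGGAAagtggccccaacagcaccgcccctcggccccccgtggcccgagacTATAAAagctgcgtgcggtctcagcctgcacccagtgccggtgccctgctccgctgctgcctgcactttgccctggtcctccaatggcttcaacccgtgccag
Vcam1, chr2:206742734-206743033, minus strand: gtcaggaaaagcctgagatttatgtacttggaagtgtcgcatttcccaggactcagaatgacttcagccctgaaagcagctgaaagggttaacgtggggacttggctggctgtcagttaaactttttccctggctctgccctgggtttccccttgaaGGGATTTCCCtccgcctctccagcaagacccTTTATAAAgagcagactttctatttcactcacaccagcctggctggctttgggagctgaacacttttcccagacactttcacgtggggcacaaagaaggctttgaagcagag
Tlr2, chr2:171504508-171504807, minus strand: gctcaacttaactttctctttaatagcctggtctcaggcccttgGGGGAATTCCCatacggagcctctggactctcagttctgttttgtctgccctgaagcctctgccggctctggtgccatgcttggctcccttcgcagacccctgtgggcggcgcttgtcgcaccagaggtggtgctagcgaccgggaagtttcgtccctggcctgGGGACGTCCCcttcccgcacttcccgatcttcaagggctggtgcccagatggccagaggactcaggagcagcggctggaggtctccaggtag
Tlr4, chr5:85160997-85161296, plus strand: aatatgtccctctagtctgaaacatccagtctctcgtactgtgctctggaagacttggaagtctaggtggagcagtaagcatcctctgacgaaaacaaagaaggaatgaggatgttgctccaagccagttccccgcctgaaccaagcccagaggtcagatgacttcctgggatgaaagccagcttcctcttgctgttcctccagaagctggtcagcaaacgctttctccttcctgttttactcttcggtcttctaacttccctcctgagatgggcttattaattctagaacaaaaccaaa
C3, chr9:2201290-2201589, minus strand: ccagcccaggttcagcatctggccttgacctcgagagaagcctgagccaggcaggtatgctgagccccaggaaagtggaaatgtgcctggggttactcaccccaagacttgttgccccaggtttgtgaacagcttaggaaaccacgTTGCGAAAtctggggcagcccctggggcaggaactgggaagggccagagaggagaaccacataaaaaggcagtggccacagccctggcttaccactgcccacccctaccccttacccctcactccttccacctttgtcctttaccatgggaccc

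The kappaB consensus matched in the Vcam1 window at 1 position, at position -93 counted from the gene start. In the Tlr2 window it matched at 3 positions, 2 of which overlap. Among all 33469 windows of the same length 7.51% held such a match. The Icam1 window held 1 GAS match, at position -107, against a share of 8.87% of all windows. A TATA box was matched in the Icam1, Vcam1 and Il1b windows, against 14.2% of all windows. The C3 and Il1b windows each held 1 C/EBP match, against 10.6% of all windows. No window of the 6 held AP-1, which 7.33% of all windows did, and the Tlr4 window held none of the motifs searched. A match is a run of letters and not a measured binding site, and the window that lacks a match was searched for these letters alone. The Icam1 window, with 0 matches to the kappaB letters, was not searched for variants of them.

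Values are TPM, in which reads are taken per length of gene and each library has the same total, so that levels can be compared between genes. Libraries held 10537567 to 13174967 reads on genes, as recovered from the steps in the TPM values. Of the 32883 rows, 15916 reached 1 TPM in at least 3 libraries and were tested with limma on log2(TPM + 1), and 7 of the 7 genes were among them. Il1b passed that filter through OIR libraries alone, 4 of them, and Ccl2 through 6 OIR libraries and 1 sham library. Markers of retinal cell types, leukocytes and vessels and the other genes of these pathways were listed by symbol, and since no table pairs symbols with the identifiers they were not analysed here. The tissue label was therefore not checked against markers. The sham columns and the OIR columns carry separate runs of numbers, and mimic columns carry one letter and scrambled columns another, so whatever these stand for cannot be told apart from the groups. One number stands in 2 columns, replicate 1 of Sham scrambled and replicate 1 of Sham mimic. The labels do not say whether it marks an animal, so these libraries may not be independent, and the tests treat them as if they were.

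OIR retinas held more RNA of 5 of the 7 genes than sham retinas, averaged over both RNA treatments. C3, Ccl2, Tlr2, Icam1 and Il1b were higher at a limma adjusted p below 0.05, and 0 of the 7 were lower. Vcam1 and Tlr4 were not called. Among all tested genes 30.2% were called in this comparison, and 17.5% were called higher. The 7 genes were chosen with earlier results of these data known, so shares beside their counts are a description only. The same 5 genes had an unadjusted p below 0.05, and so had Vcam1, against 40.9% of all tested genes. For C3, Ccl2, Tlr2, Icam1 and Il1b each of the 6 OIR libraries lay above each of the 6 sham libraries, which held for 9.78% of all tested genes. For Il1b the closest OIR and sham libraries, at 0.249 and 0.224 TPM, had 2 reads each, and their order is within counting error. The median log2 difference was 1.22 over the 7 genes and 0.04 over all tested genes. Il1b was among the tested genes through its OIR libraries alone, and Ccl2 had 1 sham library at 1 TPM, so both depended on their OIR libraries to be tested and their calls are given as a description. Of the 5 others 3 were called, also with each RNA on its own.

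**Figure D1:**
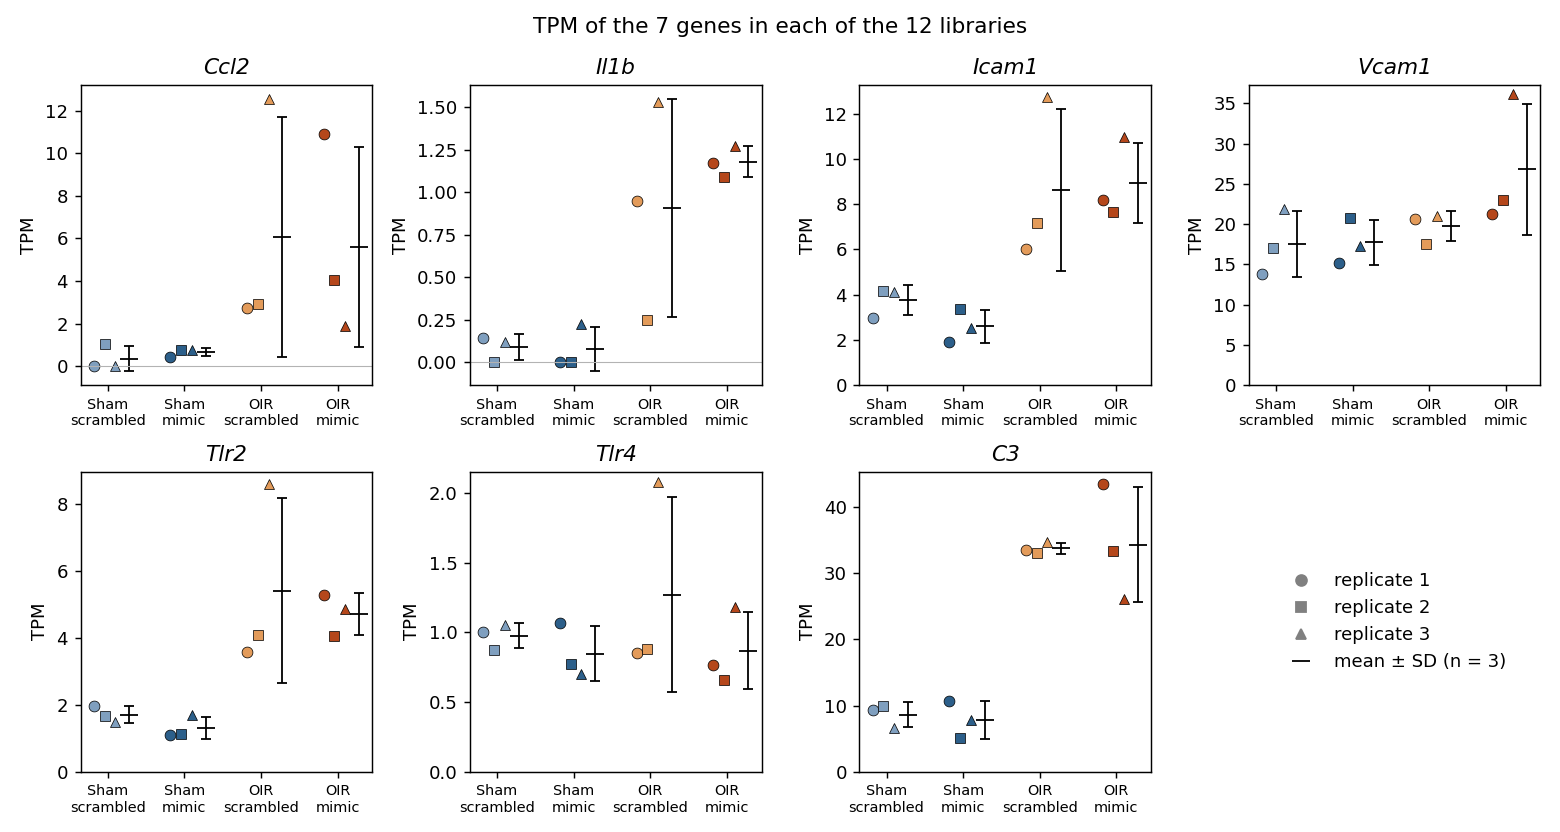
TPM (vertical axis) of each of the 7 genes in the 12 libraries, by group (horizontal axis); symbols are libraries by replicate number and bars are the mean and SD of 3 libraries. C3, Ccl2, Tlr2, Icam1 and Il1b have OIR libraries above each sham library, and for Vcam1 and Tlr4 the conditions overlap. For Il1b the separation is narrow (0.249 against 0.224 TPM) and within counting error.

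C3, the central complement component, had the lowest adjusted p of the 7 genes. In Sham scrambled it stood at 9.37, 9.99 and 6.53 TPM in replicates 1 to 3, and in Sham mimic at 10.7, 5.04 and 7.74 TPM. In OIR scrambled it stood at 33.5, 33.04 and 34.7 TPM and in OIR mimic at 43.4, 33.3 and 26.1 TPM. Each OIR library was thus more than 26 TPM and each sham library under 11 TPM, with the widest spread in OIR mimic. The mean rose from 8.22 ± 2.17 to 34.0 ± 5.51 TPM (SD, n = 6 each), a ratio of 4.14. The log2 difference was 1.95 (SE 0.17, limma adjusted p = 2.62e-05), and a two-sided exact permutation test within each RNA treatment gave p = 0.005, the smallest that 400 divisions allow. This test gave p below 0.05 for 5 of the 7 genes, against 40% of all tested genes. Among the 5 are Il1b and Ccl2, which depended on their OIR libraries to be tested. By the size of its log2 difference C3 was number 55 of the 15916 tested genes, and by mean level it moved from number 10721 in sham to number 5918 in OIR. In RNA of whole retinas, more cells that express a gene and more RNA per cell cannot be told apart.

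Ccl2, the monocyte attractant, was nearly silent in sham. Sham scrambled replicates 1 and 3 were listed at 0, where 3 reads would have given 0.707 and 0.603 TPM, and replicate 2 stood at 1.03 TPM. Sham mimic libraries stood at 0.428, 0.773 and 0.748 TPM. In OIR scrambled the values were 2.72, 2.91 and 12.6 TPM, and in OIR mimic 10.9, 4.05 and 1.89 TPM. The high libraries, OIR scrambled replicate 3 and OIR mimic replicate 1, are those without tags, and the 4 other OIR libraries stood between 1.89 and 4.05 TPM, still above each sham library. The 6 OIR libraries held 163 Ccl2 reads and the 6 sham libraries 15, a ratio of 11.6 per read sequenced, with an exact 95% interval of 6.81 to 21.1 that covers counting error only. The log2 difference was 1.98 (SE 0.40, limma adjusted p = 0.00338), which understates the change of so low a gene, and 3.49 by voom on the recovered reads. Without both untagged libraries it was 1.40 (limma adjusted p = 0.00341). The exact permutation test gave p = 0.005. As Ccl2 depended on its OIR libraries to be tested, its p-values are given as a description.

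Il1b, the cytokine interleukin 1 beta, was the least abundant of the 7 genes in sham. It was listed at 0 in Sham scrambled replicate 2 and in Sham mimic replicates 1 and 2, where 3 reads would have given 0.347 to 0.384 TPM. The other sham libraries stood at 0.141, 0.12 and 0.224 TPM, on 1 or 2 reads each. In OIR scrambled it stood at 0.949, 0.249 and 1.53 TPM and in OIR mimic at 1.17, 1.09 and 1.27 TPM. OIR scrambled replicate 2, with 2 reads, lay close to the highest sham library, also with 2 reads, and their order is within counting error. Over all libraries 48 OIR reads stood against 4 sham reads, a ratio of 12.8 per read sequenced (exact 95% interval 4.68 to 48.8, counting error only). The log2 difference was 0.89 (SE 0.19, limma adjusted p = 0.00468, exact permutation p = 0.005) and 3.10 by voom on the recovered reads, so the size of the change on a log scale is poorly fixed. Without the untagged libraries the log2 difference was 0.78 with a limma adjusted p of 0.0207. As Il1b was tested through its OIR libraries alone, its p-values are given as a description.

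Icam1, the endothelial ligand of leukocyte beta 2 integrins, stood at 2.98, 4.17 and 4.13 TPM in Sham scrambled and at 1.89, 3.36 and 2.54 TPM in Sham mimic. In OIR scrambled it stood at 6.02, 7.16 and 12.7 TPM and in OIR mimic at 8.20, 7.67 and 10.97 TPM. The lowest OIR library was above the highest sham library, and OIR scrambled replicate 3 was again the highest. The mean rose from 3.18 ± 0.895 to 8.79 ± 2.54 TPM (SD, n = 6 each), a ratio of 2.77. Its log2 difference was 1.22 (SE 0.18, limma adjusted p = 0.000465, exact permutation p = 0.005), and 1.10 without the untagged libraries. With a pseudocount of 0.1 TPM in place of 1 TPM it was 1.44.

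Vcam1, the ligand of the integrin VLA-4 on monocytes and lymphocytes, was the most abundant of the 7 genes in sham. It stood at 13.7, 17.02 and 21.8 TPM in Sham scrambled and at 15.2, 20.7 and 17.3 TPM in Sham mimic. The OIR scrambled libraries, at 20.6, 17.6 and 21.0 TPM, lay within the range of Sham scrambled. The OIR mimic libraries stood at 21.2, 22.9 and 36.1 TPM, with replicate 3 far above the others. The averaged log2 difference was 0.36 (95% interval 0.04 to 0.68, unadjusted), which missed the threshold (limma adjusted p = 0.081, exact permutation p = 0.055). Its interval excludes a 2-fold rise on the log2(TPM + 1) scale. The call was made without OIR mimic replicate 1 (adjusted p = 0.0488 by limma) and without Sham scrambled replicate 3 (limma adjusted p = 0.0394).

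That Icam1 was called and Vcam1 was not does not show that they differ, so their ratio within each library, which does not depend on the scaling between libraries, is described. The ratio of Icam1 to Vcam1 TPM was 0.125 to 0.245 in the 6 sham libraries and 0.291 to 0.607 in the 6 OIR libraries. Its geometric mean was 2.14-fold higher in OIR, with no overlap between conditions. Of the 15915 other tested genes 1.04% had a ratio to Vcam1 that was higher in OIR without overlap. The ratio, like that of the receptors below, was chosen after the values were seen and is given with no test.

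Tlr2, a receptor for bacterial lipoproteins, stood at 1.97, 1.66 and 1.49 TPM in Sham scrambled and at 1.10, 1.12 and 1.69 TPM in Sham mimic. In OIR scrambled it stood at 3.58, 4.08 and 8.58 TPM and in OIR mimic at 5.27, 4.04 and 4.87 TPM. OIR scrambled replicate 3 was the highest by far, and the 5 other OIR libraries lay between 3.58 and 5.27 TPM. The mean rose from 1.51 ± 0.342 to 5.07 ± 1.83 TPM (SD, n = 6 each), a ratio of 3.37. The log2 difference was 1.24 (SE 0.18, limma adjusted p = 0.00042, exact permutation p = 0.005), and 1.04 without the untagged libraries (limma adjusted p = 0.000593). On log2(TPM + 1) the change of so low a gene is understated, and with a pseudocount of 0.1 TPM it was 1.65.

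Tlr4, the receptor for bacterial lipopolysaccharide, stood at 1.001, 0.876 and 1.05 TPM in Sham scrambled and at 1.07, 0.773 and 0.701 TPM in Sham mimic. In OIR scrambled it stood at 0.85, 0.883 and 2.08 TPM and in OIR mimic at 0.763, 0.658 and 1.18 TPM. Apart from OIR scrambled replicate 3 the OIR libraries spanned the sham range. The log2 difference was 0.08 (unadjusted 95% interval -0.28 to 0.45, limma adjusted p = 0.747, exact permutation p = 0.685). It was -0.04 without OIR scrambled replicate 3, -0.02 without both untagged libraries and -0.04 after quantile normalisation, so no direction is given. Tlr4 rests on 13 to 39 reads per library, which limits what could be detected. At this level log2(TPM + 1) also understates a change and narrows its interval. With a pseudocount of 0.1 TPM the log2 difference of Tlr4 was 0.12.

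The ratio of Tlr2 to Tlr4 within a library was 1.03 to 2.41 in the 6 sham libraries and 4.12 to 6.90 in the 6 OIR libraries, with a geometric mean 3.01-fold higher in OIR. Of the 15915 other tested genes 1.83% had a ratio to Tlr4 that was higher in OIR without overlap. OIR scrambled replicate 3, the library with the highest level of both receptors, had a ratio of 4.13, close to the 4.21 and 4.62 of the other OIR scrambled libraries. The plot of ratios shows that conditions did not overlap for either pair.

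**Figure D2:**
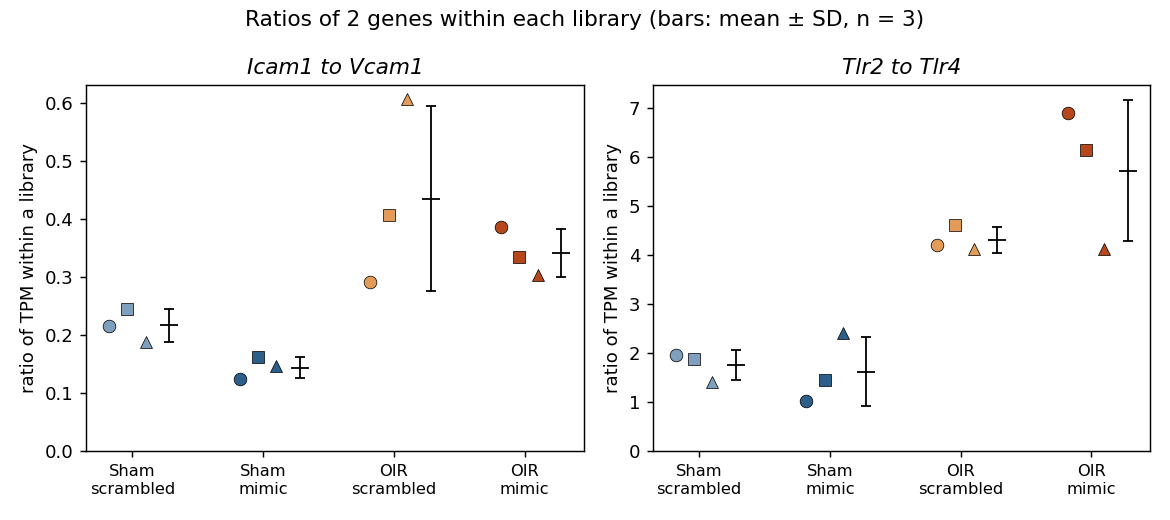
Ratio of Icam1 to Vcam1 (left) and of Tlr2 to Tlr4 (right) in TPM within each library (vertical axes), by group (horizontal axes); symbols are libraries, bars the mean and SD of 3 libraries. Sham libraries reach 0.245 and 2.41, and OIR libraries start at 0.291 and 4.12.

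Whether the change in OIR was seen with each RNA was asked next. With scrambled RNA 4 of the 7 genes were called, all higher: C3, Ccl2, Tlr2 and Icam1. Among all tested genes 10.7% were called there and 6.79% were called higher. Ccl2 depended on its OIR libraries to be tested. Of the 5 genes other than Ccl2 and Il1b 3 were called. C3 had a log2 difference of 1.87 (SE 0.24, limma adjusted p = 0.00133) and Tlr2 of 1.17 (SE 0.25, limma adjusted p = 0.0141). Tlr2 and C3 were called in each of 20 alternative settings. Ccl2 had a log2 difference of 2.20 (SE 0.57, limma adjusted p = 0.0317) and Icam1 of 0.97 (SE 0.25, limma adjusted p = 0.0315), and both calls depended on single libraries. For Ccl2 the limma adjusted p was 0.106 when OIR scrambled replicate 3 was left out, and 0.103 and 0.0939 on leaving out replicate 1 or 3 of Sham scrambled. For Icam1 it was 0.0524 and 0.103 on leaving out replicate 2 or 3 of OIR scrambled, and 0.108, 0.0691 and 0.0597 without Sham scrambled replicates 1, 2 and 3. With no filter on low values both stood at a limma adjusted p of 0.0515. Without the 2 untagged libraries the call of Icam1 was lost (log2 difference 0.68, limma adjusted p = 0.114) and Ccl2 had a log2 difference of 1.59 (limma adjusted p = 0.0335). Tlr2 then stood at 0.84 (limma adjusted p = 0.0316) and C3 at 1.85 (limma adjusted p = 0.00541).

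Il1b had a log2 difference of 0.76 with scrambled RNA (limma adjusted p = 0.0991) and was not called. It was called without OIR scrambled replicate 2, its low library (limma adjusted p = 0.0332), and by voom on recovered reads (limma adjusted p = 0.0398). These calls are given as a description, since Il1b was tested through its OIR libraries alone. Vcam1 (log2 difference 0.18, interval -0.27 to 0.63) and Tlr4 (0.16, interval -0.36 to 0.68) were not called.

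With the mimic 5 of the 7 genes were called, again all higher, against 19.5% of tested genes called and 9.76% called higher. Il1b and Ccl2, among the called, depended on their OIR libraries to be tested, and their calls are a description. Of the 5 others 3 were called. At an unadjusted p below 0.05 stood 6 of the 7, the sixth being Vcam1, against 32.3% of all tested genes. The log2 differences were 2.02 for C3 (limma adjusted p = 0.000464), 1.47 for Icam1 (limma adjusted p = 0.00243) and 1.32 for Tlr2 (limma adjusted p = 0.0042). These 3 were called in each of 20 alternative settings. Il1b had a log2 difference of 1.03 (limma adjusted p = 0.0215). Its call was lost without OIR mimic replicate 1 or 3 (0.0521 and 0.0609) and without Sham mimic replicate 1 or 2 (0.0629 and 0.0674). Ccl2 had a log2 difference of 1.76 and stood at the threshold (limma adjusted p = 0.0498). Its call was lost in 15 of 20 settings, with a limma adjusted p of 0.0198 to 0.16 over them. It was lost on leaving out 10 of the 12 libraries in turn; the exceptions were OIR mimic replicate 3 and OIR scrambled replicate 3. Without the 2 untagged libraries its log2 difference was 1.22 (limma adjusted p = 0.043), and the 4 other calls were kept. Vcam1 was not called, with a log2 difference of 0.54 (interval 0.09 to 0.99, limma adjusted p = 0.0881), although its OIR mimic libraries all lay above its Sham mimic libraries, as did those of the 5 called genes. That held for 20.1% of all tested genes.

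**Figure D3:**
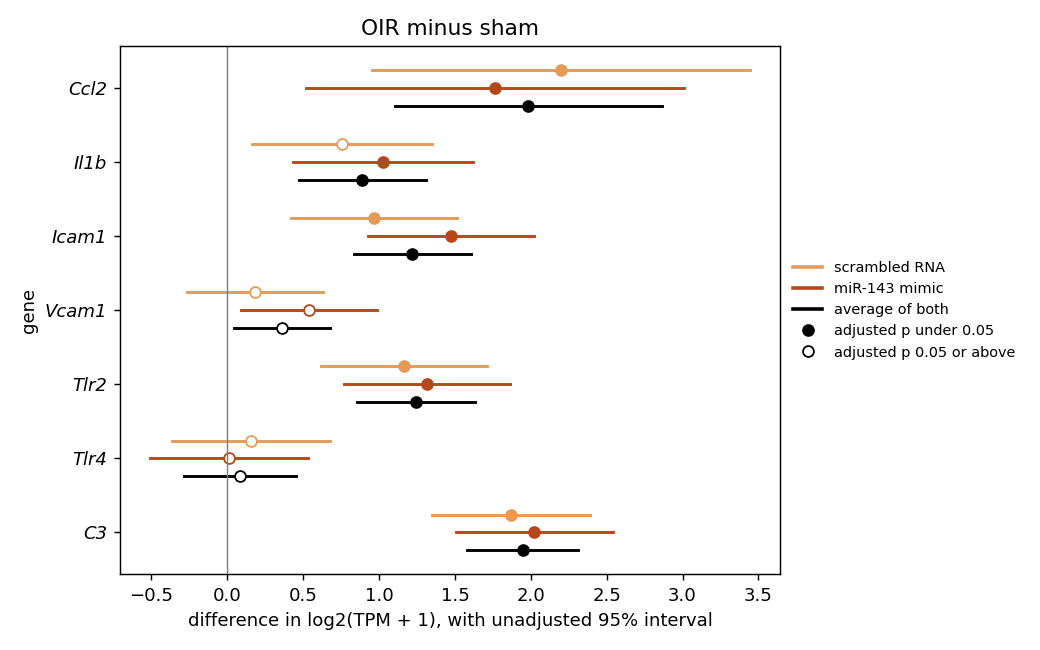
Difference in log2(TPM + 1) between OIR and sham (horizontal axis) for each gene (vertical axis), for scrambled RNA, for the mimic and for their average; lines are unadjusted 95% intervals and filled points have a limma adjusted p under 0.05. The averaged points of C3 (1.95) and Ccl2 (1.98) lie farthest to the right and the Tlr4 intervals span 0.

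The size of the OIR change was not shown to depend on the RNA given. The interaction was called for 0 of the 7 genes, as for 0% of all tested genes (limma), and 0 of the 7 had an unadjusted p below 0.05, as had 3.7% of all tested genes. By voom on recovered reads 0 of the 7 were called. The widest interval was that of Ccl2, -2.20 to 1.32 around a difference of -0.44 on the log2 scale. For C3 the interaction was 0.15 (interval -0.58 to 0.89) and for Tlr2 0.15 (interval -0.62 to 0.92). For Icam1 it was 0.51 (interval -0.27 to 1.28), and its Sham mimic mean of 2.60 ± 0.733 TPM was below the 3.76 ± 0.676 TPM of Sham scrambled (SD, n = 3 each) with overlapping libraries. These intervals leave room for changes that differ by over 1.5-fold between the RNAs.

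The mimic was compared with scrambled RNA within each condition. In OIR 0 of the 7 genes were called by limma, as were 0% of all tested genes. At an unadjusted p below 0.05 stood 0 of the 7 and 9.37% of all tested genes. Without the 2 untagged libraries limma called 28 of the 15916 tested genes there, 27 lower and 1 higher with the mimic. Of the 7 genes 0 were among them. Vcam1 had a log2 difference of 0.39 (interval -0.06 to 0.83, limma adjusted p = 0.587), with means of 26.8 ± 8.16 TPM with the mimic and 19.7 ± 1.87 TPM with scrambled RNA (SD, n = 3 each). Its OIR mimic libraries all lay above its OIR scrambled libraries, although narrowly for OIR mimic replicate 1 (21.2 against 21.0 TPM in OIR scrambled replicate 3), and OIR mimic replicate 3 stood far above the rest at 36.1 TPM. Such a separation, higher with the mimic, was seen for 1 of the 7 genes and for 3.64% of all tested genes. The C3 means were 34.3 ± 8.66 TPM with the mimic and 33.7 ± 0.845 TPM with scrambled RNA (SD, n = 3 each), a log2 difference of -0.01 (interval -0.52 to 0.51). For Ccl2 the interval of -1.31 to 1.18 allows a change of over 2-fold either way. Tlr2 and Icam1 had log2 differences of -0.09 (interval -0.64 to 0.46) and 0.09 (interval -0.45 to 0.64), Il1b of 0.25 (interval -0.35 to 0.84) and Tlr4 of -0.25 (interval -0.77 to 0.27). The size for low genes depends on the scale, and by voom Il1b stood at 0.67 and Tlr4 at -0.45, against 0.42 for Vcam1.

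In sham 0 of the 7 genes were called as well (limma, 0% of all tested genes called; 0 of the 7 and 2.09% of all tested genes at an unadjusted p below 0.05). Icam1 had a log2 difference of -0.41 (interval -0.96 to 0.13). The difference was negative for 5 of the 7 genes, and the median over all tested genes was negative too (-0.03). The share of all tested genes with a negative difference was not worked out. For Ccl2 (0.37, interval -0.87 to 1.62) and Il1b (-0.02, interval -0.62 to 0.57) the sham libraries hold too few reads to fix the size of a change, and Ccl2 stood at 1.70 with a pseudocount of 0.1 TPM and at 1.64 by voom. The separation of mimic from scrambled libraries, higher with the mimic, was seen for 0 of the 7 genes in sham and for 2.83% of all tested genes. Leaving out either library with the shared column number left 0 of the 7 called. Voom on recovered reads called 0 of the 7 genes in either condition.

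**Figure D4:**
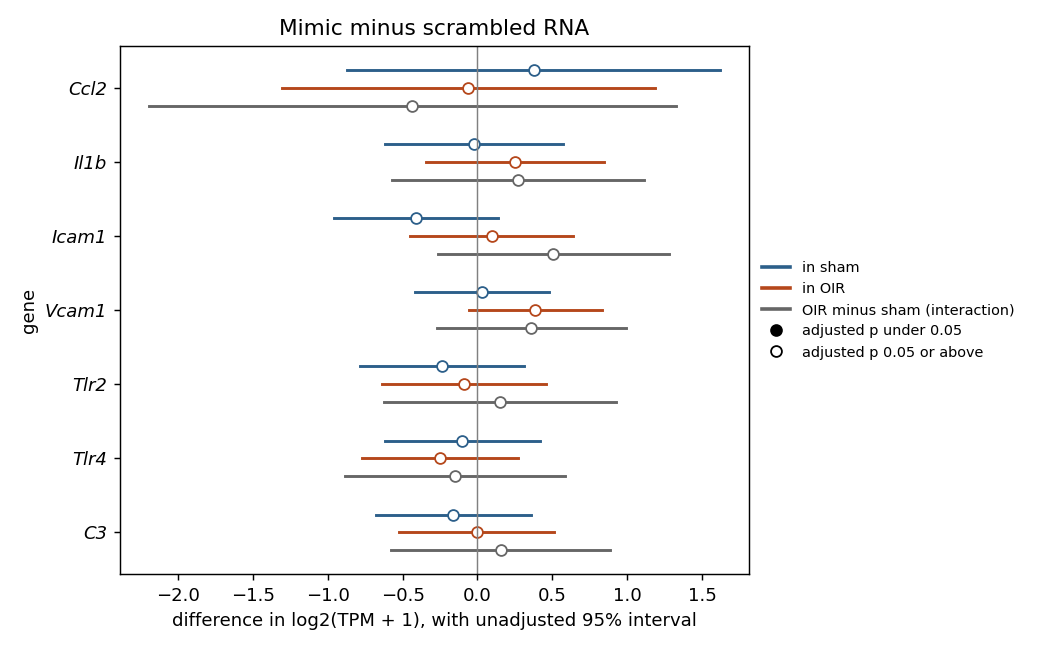
Difference in log2(TPM + 1) between mimic and scrambled RNA (horizontal axis) for each gene (vertical axis), in sham, in OIR, and the interaction; lines are unadjusted 95% intervals. All points are open, since 0 of the 7 genes passed the threshold, and Ccl2 has the widest intervals.

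Ordered by mean level in sham, the genes ran from Vcam1 (17.6 ± 3.12 TPM) over C3 (8.22), Icam1 (3.18), Tlr2 (1.51), Tlr4 (0.913 ± 0.154) and Ccl2 (0.497 ± 0.43) to Il1b (0.0808 ± 0.0951; SD, n = 6 each). In OIR C3 (34.0) was first, before Vcam1 (23.3 ± 6.55), Icam1 (8.79), Ccl2 (5.84 ± 4.65), Tlr2 (5.07), Tlr4 (1.07 ± 0.525) and Il1b (1.04 ± 0.436). The levels of Ccl2 and Tlr2 in OIR, and those of Tlr4 and Il1b, lay within each other's spread. Across the 4 groups the 2 sham groups were neighbours for each of the 5 called genes and overlapped in range. The OIR groups overlapped in range for C3, Ccl2, Tlr2, Icam1 and Il1b.

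OIR scrambled replicate 3 held the highest value of its group for 7 of the 7 genes, and it was the highest of its group for 40.7% of all tested genes. Its Ccl2, Tlr2, Icam1 and Tlr4 values set much of the spread of OIR scrambled, while its C3 value of 34.7 TPM hardly differed from the others. OIR mimic replicate 1 was the highest of its group for 3 of the 7 (Ccl2, Tlr2 and C3), against 48.8% of all tested genes. OIR mimic replicate 3 was the highest for 4 (Il1b, Icam1, Vcam1 and Tlr4), against 32.4%. What these libraries share beyond the missing tags of the first 2 was not tested.

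The 2 other tested genes whose log2(TPM + 1) over the 12 libraries followed the mean standardised profile of the 7 most closely were ENSRNOG00000020673 (Pearson r 0.987) and ENSRNOG00000012074 (r 0.985), as a description. The first stood at 46.2 ± 3.65 TPM in sham and 76.1 ± 13.3 TPM in OIR (SD, n = 6 each), the second at 61.8 ± 1.77 and 82.8 ± 6.35 TPM. Their names are not paired with identifiers in the sources used here. Against the same profile, of which each is a part, Tlr2 (0.971), Icam1 (0.964) and Il1b (0.944) were closest among the 7, Vcam1 (0.64) and Tlr4 (0.493) least.

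**Figure D5:**
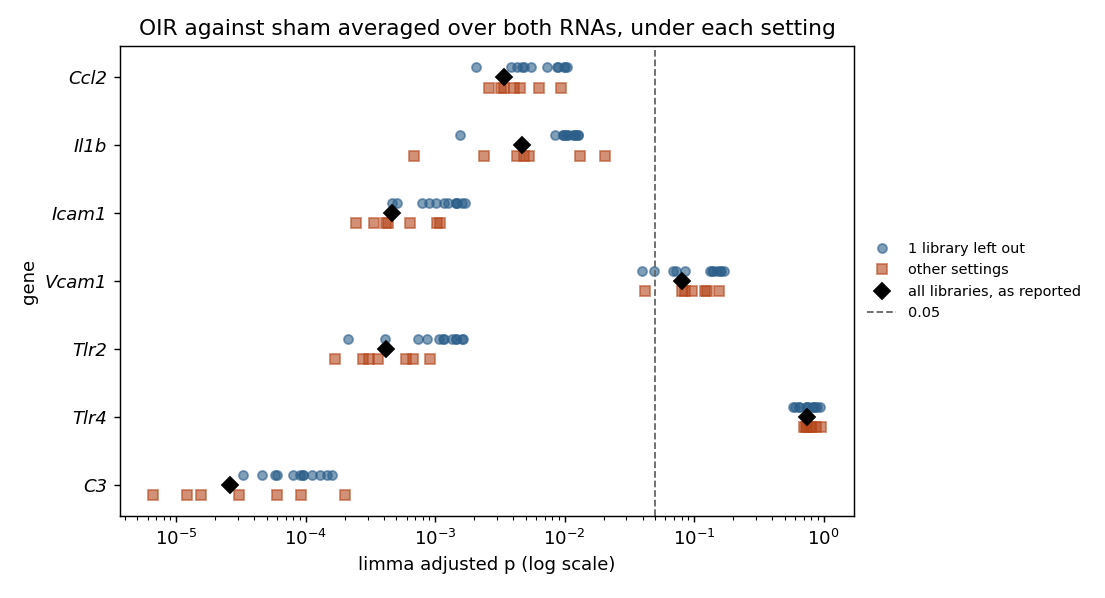
Limma adjusted p (horizontal axis, log scale) of OIR against sham averaged over both RNAs for each gene (vertical axis) with 1 library left out, under other settings and as reported; the dashed line is 0.05. C3, Tlr2, Icam1, Il1b and Ccl2 stay left of the line in each of the 19 settings, Vcam1 crosses it in 3 and Tlr4 stays right of it.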

How the data were processed

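The authors deposited 1 table of TPM values for 12 libraries, with 32883 Ensembl gene identifiers. Tools named in the submitters' processing notes, with no role or version, are FastQC, TopHat, Cufflinks and Cuffdiff, and the build is rn6. Counter, annotation and use of strand: not given in the sources used here. Per the labels' protocols libraries were sequenced single-end, and the text speaks of miRNA libraries although the table lists genes. Columns were assigned through the lines above the table, and 0 were left unassigned.

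Reads and gene lengths were recovered as the smallest whole numbers that fit the TPM steps (tolerance 0.02, 22310 of 22310 rows above 0), for depth, counting limits and 1 added alternative. Genes at 1 TPM or more in at least 3 libraries were fitted as log2(TPM + 1) with limma 3.58.1 in R 4.3.3 (1 mean per group, 8 residual degrees of freedom, trend and robust options), with Benjamini-Hochberg adjustment over 15916 genes and a threshold of 0.05. Exact permutation tests (Python 3.11.15) were two-sided, within each RNA treatment; the planned adjustment over the 7 genes was left out, since the genes and lists were chosen with earlier results of these data known. The recovery of reads and the limma fit were also run on simulated data, and the permutation test was not. The text names all 7 genes whatever their values, and the 2 most similar tested genes. RefSeq held 47357 genes and 0 Ensembl identifiers, so planned pathway and cell type lists were not used. Alternatives were a pseudocount of 0.1 TPM, no filter, median-ratio and quantile scaling, only the 2 groups compared, a replicate block, leaving out the 2 untagged libraries or each library, and, chosen after seeing the data, voom on recovered reads.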

Additional observations from a re-analysis of the deposited data

How the results depend on the processing

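Averaged over both RNAs, the number of called genes among the 7 was 5 to 6 with 1 library left out and within 1.5 times of 5 in each other setting. With 1 library left out 4030 to 4905 of the 15916 tested genes were called there, against 4813 with all libraries. With scrambled RNA 2 of the 7 were called with no filter, as were 1390 of 22310 tested genes. With only the 2 groups compared 2 of the 7 were called, as were 1310 of 15916. With 1 library left out 2 to 4 of the 7 were called, and 806 to 2175 of 15916. All libraries with the filter gave 1704 of 15916. With the mimic 3 to 5 of the 7 were called with 1 library left out. Among the 15916 tested genes 2041 to 3278 were called there, against 3108 with all libraries. These settings differ in the libraries used or in the genes tested, and the cause of the differing counts was not tested. The exact permutation test gave p below 0.05 for 5 genes (40% of all tested genes), and for 5 to 6 with 1 library left out. For the latter no share of all tested genes was worked out. Il1b and Ccl2, which depended on their OIR libraries to be tested, are among the 5. Of 413 alternative values for the mimic within a condition and for the interaction, 0 were called. In these settings at most 28 of all tested genes were called. The values are not independent, since leaving out an OIR library does not change a difference within sham.

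Nothing in the labels says that a replicate number marks a shared animal or day. Deviations of same-numbered libraries correlated above 0.1 in 5 of 18 pairs (-0.0481 to 0.258), and the best match was the own number in 17 of 36 cases. The count expected of unpaired libraries was not worked out, so the matches do not settle whether numbers mark pairs. The highest correlation, 0.258, was that of the 2 sham libraries that also share the column number, so a shared source of that pair is possible and was not tested. With the replicate block Vcam1 was called in the averaged comparison (0.36, limma adjusted p = 0.0414) and with the mimic (limma adjusted p = 0.046), and Ccl2 was lost with scrambled RNA (limma adjusted p = 0.0562) and with the mimic (0.0815).

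Directions turned only for values that were not called. For Tlr4 the OIR difference was -0.00155 (scrambled RNA), -0.079 (mimic) and -0.0403 (averaged) after quantile normalisation, -0.00507 with the mimic after median-ratio scaling, and -0.0824 with scrambled RNA and -0.0181 averaged without the untagged libraries. With 1 library left out it was -0.0824 to 0.285 (scrambled RNA), -0.107 to 0.0946 (mimic) and -0.0362 to 0.148 (averaged). For the mimic in OIR, quantile normalisation gave 0.0336 for Ccl2, 0.0153 for Tlr2 and 0.0498 for C3, and C3 was 0.0383 after median-ratio scaling and 0.0209 by voom. Without the untagged libraries Ccl2 was 0.00251, Tlr2 0.174 and Tlr4 0.027, and the interaction was 0.129 for Tlr4 and -0.00581 for C3. With 1 library left out the mimic difference in OIR was -0.608 to 0.549 for Ccl2, -0.0285 to 0.481 for Il1b, -0.103 to 0.381 for Icam1, -0.291 to 0.242 for Tlr2 and -0.186 to 0.169 for C3. In sham it was -0.118 to 0.0277 for Il1b, -0.124 to 0.19 for Vcam1 and -0.388 to 0.0864 for C3. The interaction was -0.983 to 0.175 for Ccl2, -0.00766 to 0.502 for Il1b, -0.0525 to 0.481 for Tlr2, -0.275 to 0.0924 for Tlr4 and -0.0924 to 0.382 for C3. The change of the ratio of Tlr2 to Tlr4 was 1.16 on the log2 scale with a pseudocount of 1 TPM, against 1.59 without one. Depth limits Ccl2, Il1b and Tlr4, which rest on few reads in each library.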
